A study of Mus musculus with 12 samples.

Results

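Chromatin accessibility was examined at the 4 mouse genes of the MiT/TFE family, Mitf, Tfeb, Tfe3 and Tfec. The regions described are all accessible peaks to which the deposited peak tables give one of these 4 gene names. There were 53 of 91770 peaks in microglia, 24 of 107627 in NeuN+ nuclei and 98 of 82577 in Olig2+ nuclei, which makes 175 of 281974 peaks in all. Of these, Mitf had 17, 8 and 21 peaks in the 3 populations, Tfeb had 27, 10 and 76, Tfe3 had 5, 3 and 1, and Tfec had 4, 3 and 0. A peak was called a start-site peak when it lay within 1000 bp of the transcription start that the table names for it, and distal otherwise. Start-site peaks numbered 8, 5 and 7, and distal peaks 45, 19 and 91.

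The study measured accessibility by ATAC-seq, an assay that cuts and tags exposed DNA with a transposase. The material was forebrain of 4-month-old C57BL/6 mice. The mice were either WT or SgshKO. Sgsh encodes N-sulfoglucosamine sulfohydrolase, a lysosomal enzyme that degrades heparan sulfate and whose loss causes a lysosomal storage disease. The labels do not say how the SgshKO allele was made, which cells carry it, the sex of the mice or whether animals were pooled. Microglia were sorted as live CD11b+ CD45low CX3CR1+ cells. NeuN+ nuclei (PU.1-, OLIG2-, the sort for neurons) and Olig2+ nuclei (PU.1-, NEUN-, the sort for oligodendrocytes) came from tissue that was lightly fixed with formaldehyde. Each of the 6 groups had 2 libraries, 12 in all. Nothing in the labels says that the libraries of a group came from separate animals, so the p-values below measure the spread between these libraries, which may be technical. All values are normalized tags, the reads in a peak scaled to a library total of 10000000.

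The MiT/TFE proteins are basic helix-loop-helix leucine zipper factors that bind E-boxes and M-boxes as dimers, with themselves and with each other. TFEB, TFE3 and MITF switch on genes of the lysosome and of autophagy. While mTORC1 is active on the lysosome they are phosphorylated, bound by 14-3-3 proteins and kept in the cytoplasm, and when the lysosome is damaged or nutrients are short they are dephosphorylated, partly by calcineurin, and enter the nucleus. Much of their control is therefore on the protein, which ATAC-seq does not measure. Mitf and Tfeb have several alternative first exons. The Mitf start nearest to the shared exons is the one used in melanocytes. Tfec is best known from the macrophage lineage.

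The promoters of these genes show which starts the data can speak to. The RefSeq promoter table (GRCm38.p6, whose coordinates mm10 shares) held 9 starts of the 4 genes, 3 of Mitf, 3 of Tfeb, 2 of Tfe3 and 1 of Tfec. The 250 bases before a start are printed in the direction of transcription, in lower case, with any match to a searched motif in capitals. The first 4 are shown because all 3 populations had a peak there. In the fifth none had, as in the windows of the third Tfeb start and the Tfec start, which are not printed.
Tfeb, first start, chr17:47736787-47737036 (+): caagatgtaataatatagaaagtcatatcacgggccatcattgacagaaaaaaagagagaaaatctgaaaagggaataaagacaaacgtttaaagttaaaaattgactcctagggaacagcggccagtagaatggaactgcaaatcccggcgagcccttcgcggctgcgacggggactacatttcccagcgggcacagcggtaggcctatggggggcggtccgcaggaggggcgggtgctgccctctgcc
Tfeb, second start, chr17:47737681-47737930 (+): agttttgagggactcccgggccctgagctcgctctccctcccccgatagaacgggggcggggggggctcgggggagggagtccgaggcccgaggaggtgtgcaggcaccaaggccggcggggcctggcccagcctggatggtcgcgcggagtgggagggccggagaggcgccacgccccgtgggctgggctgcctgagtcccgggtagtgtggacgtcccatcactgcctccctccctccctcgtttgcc
Tfe3, first start, chrX:7762411-7762660 (+): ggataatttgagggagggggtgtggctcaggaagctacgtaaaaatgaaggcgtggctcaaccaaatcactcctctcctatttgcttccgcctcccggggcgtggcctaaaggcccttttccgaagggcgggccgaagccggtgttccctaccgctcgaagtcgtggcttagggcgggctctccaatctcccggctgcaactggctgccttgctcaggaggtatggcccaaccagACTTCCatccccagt
Mitf, first start, chr6:97806808-97807057 (+): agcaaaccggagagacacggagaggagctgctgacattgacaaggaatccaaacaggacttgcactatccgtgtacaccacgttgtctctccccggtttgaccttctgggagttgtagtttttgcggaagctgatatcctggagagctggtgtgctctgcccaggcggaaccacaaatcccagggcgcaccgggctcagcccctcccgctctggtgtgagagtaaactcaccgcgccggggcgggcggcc
Mitf, the third start, chr6:97991533-97991782 (+): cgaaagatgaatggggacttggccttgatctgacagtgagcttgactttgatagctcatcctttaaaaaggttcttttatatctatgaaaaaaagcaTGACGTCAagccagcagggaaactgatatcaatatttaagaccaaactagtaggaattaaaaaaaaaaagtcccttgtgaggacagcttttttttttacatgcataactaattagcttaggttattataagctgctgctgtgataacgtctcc
The second Tfeb promoter was the richest in G and C of the 5, with 73.2%, the 94.3rd percentile of 32851 RefSeq promoters, against 51.6% for the first Tfeb promoter 894 bp upstream. The third Mitf promoter had 36% and lay 4053 bp from the nearest Mitf peak in microglia, 1816 bp in NeuN+ nuclei and 9765 bp in Olig2+ nuclei. Both strands of all 9 windows were searched for 6 motifs. The E-box CACGTG was in 0 of 9 windows and in 6.02% of all promoters, the M-box core CATGTG in 0 of 9 and 12.3%, and the AP-1 motif TGANTCA in 0 of 9 and 6.75%. The PU.1 core GGAAGT was in 2 of 9 windows, the first Tfe3 start (capitals above, as its reverse complement) and the Tfec start, and in 19.7% of all promoters. The CRE TGACGTCA was in 1 of 9, the third Mitf start (capitals above), and in 1.55% of all promoters. The SOX core ACAATG was in 1 of 9, the Tfec start, and in 10.7%. A match is a string of letters and not a shown binding site.

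The other 4 starts were covered unevenly. The second Mitf start (chr6:97929567-97929816) overlapped a peak only in microglia, by 88 bp, and the second Tfe3 start (chrX:7763693-7763942) overlapped one only in microglia, by 171 bp. No peak reached the third Tfeb start (chr17:47785494-47785743) or the Tfec start (chr6:16898442-16898691, minus strand) in any population. The nearest peak lay 45166 bp from the Tfec start in microglia, 58685 bp in NeuN+ nuclei and 97319 bp in Olig2+ nuclei. Over all RefSeq promoters of this length, 38.3% overlapped a microglial peak, 39.9% a NeuN+ peak and 36.1% an Olig2+ peak.

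Several properties of the libraries bear on every value below. Microglia libraries held 10771659 to 11804222 tags with 48.7% to 67.4% of them in peaks, NeuN+ libraries 14326703 to 17706971 with 21.2% to 26.7%, and Olig2+ libraries 15044194 to 19555924 with 30.9% to 31.8%. In microglia the highest share belonged to SgshKO replicate 1, at 67.4%, against 53.7% in SgshKO replicate 2. Beyond counting error the SgshKO microglia libraries differed by a coefficient of variation of 18.5%, against 8.83% for the WT microglia and 4.33% to 5.81% for the groups of nuclei. In NeuN+ nuclei both SgshKO libraries had lower shares (21.5% and 21.2%) than both WT libraries (26.7% and 25.9%). There the summed start-site tags of every marker list with a peak were also lower in SgshKO, those of 8 neuron markers with 936 and 850 against 491 and 504, of 4 oligodendrocyte lineage markers with 140 and 120 against 67.0 and 71.7, and of 1 microglia marker with 54.4 and 48.0 against 34.2 and 32.4. All sorts carried their defining markers: 7 of 8 microglia markers (not Aif1) had a start-site peak in microglia, 8 of 8 neuron markers in NeuN+ nuclei and 8 of 8 oligodendrocyte lineage markers in Olig2+ nuclei. Markers of other cells had start-site peaks too. In Olig2+ nuclei the oligodendrocyte lineage markers held 2271 and 2248 in WT and 2041 and 2071 in SgshKO, while 2 of 8 microglia markers held 240 and 233 against 271 and 284, 4 of 8 neuron markers 42.5 and 51.6 against 60.3 and 59.2, and 1 of 5 astrocyte markers 9.34 and 8.18 against 6.15 and 5.98. In microglia 5 of 8 oligodendrocyte lineage markers held 327 and 285 against 327 and 293, 2 of 8 neuron markers 192 and 219 against 312 and 157, 2 of 5 astrocyte markers 114 and 74.6 against 75.3 and 64.1, and 2 of 4 endothelial markers 184 and 158 against 160.1 and 104. The part of other cells in the values below was not tested. Of the blood myeloid markers, 2 of 5 had a peak in microglia, with 45.8 and 41.5 summed tags in WT and 64.9 and 45.5 in SgshKO, and Ccr2, Ly6c2 and S100a9 had none. In sorted populations a smaller share of the cells and a lower signal per cell cannot be told apart. At the Sgsh start the peak nearest to it held 184 and 162 tags in WT and 257 and 260 in SgshKO microglia (log2 change 0.58, adjusted p = 0.196), 34.6 and 22.6 against 9.07 and 13.3 in NeuN+ nuclei (-1.27, adjusted p = 0.00256) and 65.9 and 74.2 against 60.9 and 69.1 in Olig2+ nuclei (-0.11, adjusted p = 0.653, all limma), which does not check the genotype, since the labels do not place the deletion.

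Tfeb had accessible chromatin at its first and second starts in every population, and the relative weight of the starts differed between them. At the first start, the peak in microglia (chr17:47736998-47737199) held 142 and 97.4 normalized tags in the WT libraries and 96.1 and 76.1 in the SgshKO libraries. In NeuN+ nuclei (chr17:47736891-47737129) it held 154 and 153 in WT and 97.0 and 72.4 in SgshKO. In Olig2+ nuclei (chr17:47736924-47737136) it held 200 and 206 in WT and 263 and 266 in SgshKO. Both SgshKO libraries were thus below both WT libraries in the first 2 populations and above them in Olig2+ nuclei. Of all start-site peaks, 25.1% in microglia and 70.9% in NeuN+ nuclei lay below in this way, and 34.7% in Olig2+ nuclei above. In Olig2+ nuclei the first Tfeb start rose by a log2 change of 0.38 ± 0.09 (SE, n = 2 per group, a 1.30-fold level), with an adjusted p of 0.00229 in limma's moderated test. It kept this call in all 15 alternative analyses. In NeuN+ nuclei it fell by 0.87 ± 0.13 on the log2 scale (adjusted p = 0.000141, limma), a smaller change and no longer called under quantile normalization (-0.31, adjusted p = 0.149) or cyclic loess (-0.33, adjusted p = 0.068). In microglia the log2 change was -0.45 ± 0.31 and did not pass (adjusted p = 0.413, limma).

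The second Tfeb start was the strongest start-site peak of the family in microglia and among the weakest in NeuN+ nuclei. In microglia (chr17:47737712-47737950) it held 342 and 328 tags in WT and 542 and 382 in SgshKO. In NeuN+ nuclei (chr17:47737734-47737957) it held only 18.1 and 22.6 in WT and 16.8 and 11.4 in SgshKO. In Olig2+ nuclei (chr17:47737734-47737936) the WT libraries held 237 and 244 and the SgshKO libraries 272 and 274. The groups did not overlap in any of the 3, but no change at this start passed the test. Such separation was common at start sites. SgshKO lay wholly above WT at 32.7% of all microglial and 34.7% of all Olig2+ start-site peaks. It lay wholly below WT at 70.9% of those in NeuN+ nuclei. The log2 change was 0.44 ± 0.26 in microglia (adjusted p = 0.32), -0.52 ± 0.27 in NeuN+ nuclei (adjusted p = 0.147) and for Olig2+ nuclei 0.18 ± 0.08 (adjusted p = 0.113), all in limma, and the microglial value turned to -0.09 under quantile normalization and -0.05 under cyclic loess. Without SgshKO replicate 2 it was 0.69 in microglia, with an adjusted p of 0.0359.

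Between and just beyond the Tfeb starts lay smaller start-site peaks. A peak 407 bp downstream of the first start was present only in the Olig2+ table (chr17:47737306-47737583), with 86.1 and 77.2 tags in WT and 101 and 110 in SgshKO. It rose by 0.37 ± 0.13 (adjusted p = 0.045, limma), and this call was lost without WT replicate 1, WT replicate 2 or SgshKO replicate 2. Downstream of the second start, microglia (chr17:47738216-47738560) had 74.3 and 75.4 tags in WT and 115 and 86.3 in SgshKO, a log2 change of 0.41 that did not pass (adjusted p = 0.475, limma). The NeuN+ peak there (chr17:47738152-47738504) had 13.6 and 16.9 in WT and 5.58 and 8.89 in SgshKO and fell by 1.00 ± 0.31 (adjusted p = 0.0229, limma), a call lost under in-peak scaling, median-of-ratios scaling, quantile normalization and edgeR, with the direction kept. Near the third Tfeb start only Olig2+ nuclei had a start-site peak (chr17:47786095-47786643, exonic), with 20.8 and 20.97 tags in WT and 27.7 and 29.3 in SgshKO (log2 change 0.43, adjusted p = 0.176, limma).

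**Figure D1:**
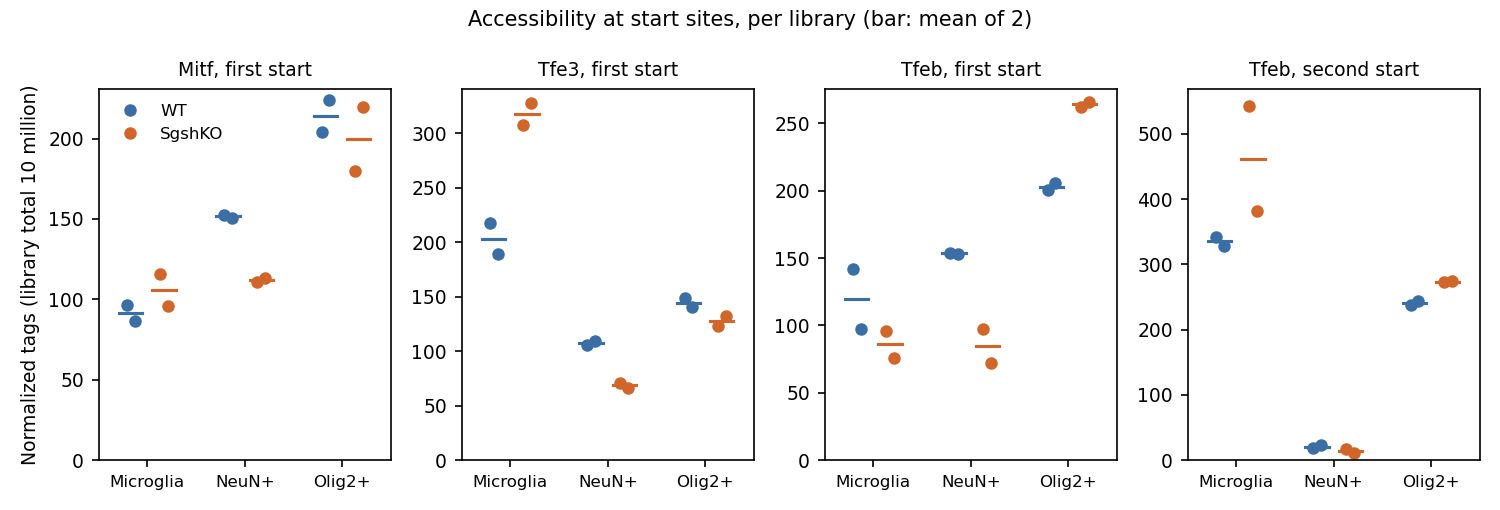
Normalized tags (library total 10000000) at 4 start sites, with WT and SgshKO libraries as points and the mean of 2 libraries as a bar, for the 3 populations. At the first Tfeb start both SgshKO libraries lie below both WT libraries in NeuN+ nuclei (97.0 and 72.4 against 154 and 153) and above them in Olig2+ nuclei (263 and 266 against 200 and 206), and at the first Mitf start the lower NeuN+ SgshKO values depend on the scaling, since the log2 change turns to 0.14 under quantile normalization. Of all start-site peaks, 70.9% lie below in this way in NeuN+ nuclei and 34.7% above in Olig2+ nuclei.

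Mitf encodes the family member best known from pigment cells and osteoclasts. Its first start, the most upstream, was open in all 3 populations. In microglia (chr6:97806863-97807164) the peak held 96.8 and 86.4 tags in WT and 116 and 95.6 in SgshKO. In NeuN+ nuclei (chr6:97806839-97807072) it held 152 and 151 in WT and 111 and 113 in SgshKO. In Olig2+ nuclei (chr6:97806843-97807050) the WT libraries held 204 and 224 and the SgshKO libraries 180 and 219. The groups overlapped in microglia and in Olig2+ nuclei. They were apart in NeuN+ nuclei, with SgshKO lower, as at 70.9% of all start-site peaks there. There the Mitf start fell by 0.43 ± 0.11 (0.74-fold, adjusted p = 0.00583, limma) as deposited, but the sign turned under quantile normalization (0.14) and cyclic loess (0.13) and the call was lost under in-peak scaling (-0.14, adjusted p = 0.346) and edgeR (-0.22, adjusted p = 0.125). The log2 change was 0.20 ± 0.31 in microglia (adjusted p = 0.752, and -0.0036 under in-peak scaling) and -0.10 ± 0.10 in Olig2+ nuclei (adjusted p = 0.48), neither past the threshold in limma. The second Mitf start had a start-site peak only in microglia (chr6:97929347-97929654), with 87.3 and 103 in WT and 174 and 81.7 in SgshKO. SgshKO replicate 1 alone stood above the WT libraries there. The log2 change of 0.33 ± 0.32 did not pass (adjusted p = 0.595, limma), and without SgshKO replicate 1 it was -0.21, against 0.87 (adjusted p = 0.018) without SgshKO replicate 2.

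Tfe3, an X-linked and broadly expressed gene, had its first start open in all 3 populations. In microglia (chrX:7762493-7762698) the peak held 218 and 189 tags in WT and 307 and 328 in SgshKO. In NeuN+ nuclei (chrX:7762458-7762683) it held 105 and 109 in WT and 71.2 and 66.7 in SgshKO. In Olig2+ nuclei (chrX:7762482-7762724) it held 149 and 141 in WT and 124 and 132 in SgshKO. Thus the SgshKO libraries were above the WT libraries in microglia and below them in both kinds of nuclei. Of all start-site peaks, 32.7% lay above in this way in microglia, and 70.9% below in NeuN+ and 26.2% in Olig2+ nuclei. In NeuN+ nuclei the Tfe3 start fell by 0.63 ± 0.13 (0.64-fold, adjusted p = 0.00164, limma), which was -0.33 and not called under in-peak scaling (adjusted p = 0.0525) and -0.11 under quantile normalization (adjusted p = 0.497). In microglia the log2 change of 0.64 ± 0.26 (1.56-fold) did not pass (adjusted p = 0.135, limma). It passed under median-of-ratios scaling (0.70, adjusted p = 0.0332), in edgeR (0.70, adjusted p = 0.0222), with a replicate block (0.64, adjusted p = 0.0174) and without SgshKO replicate 1 (0.69, adjusted p = 0.0394). In Olig2+ nuclei it was -0.18 ± 0.11 (adjusted p = 0.256, limma).

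The second Tfe3 start was covered only in microglia. The peak at it (chrX:7763772-7764006) held 124 and 119 tags in WT and 117 and 119 in SgshKO, and the neighbouring peak (chrX:7764088-7764382) held 154 and 123 in WT and 168 and 182 in SgshKO. Neither change passed (log2 changes -0.04 and 0.34, adjusted p = 0.959 and 0.511, limma), and the first of these turned to 0.02 under median-of-ratios scaling. Because Tfe3 lies on the X chromosome and the labels give no sex, the sex chromosomes were tallied beside it. The summed tags of chromosome Y peaks in microglia were 167 and 129 for WT and 76.2 and 72.4 for SgshKO (6 peaks). They were 610 and 579 against 270.1 and 250.1 in NeuN+ nuclei (22 peaks). In Olig2+ nuclei they were 201 and 196 against 128 and 112 (17 peaks). Xist had no start-site peak, and peaks farther from its start were not tallied. The median log2 change of start-site peaks on the X chromosome was 0.19 for microglia, -0.49 for NeuN+ nuclei and -0.04 for Olig2+ nuclei. The part of a difference in sex between the groups in the Tfe3 values was not tested.

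Tfec, encoded on the minus strand of chromosome 6 (16830927 to 16898464), had no start-site peak and no peak within its gene body in any table. All 7 of its peaks were intergenic. In microglia the 4 Tfec peaks lay 45298 to 79117 bp upstream of the start, and the highest (chr6:16963949-16964278) held 92.5 and 44.1 tags in WT and 98.7 and 63.1 in SgshKO. That of lowest level (chr6:16977448-16977669) held 4.32 and 3.39 in WT and 12.1 and 8.36 in SgshKO. None of the 4 passed (log2 changes -0.01 to 1.20). In NeuN+ nuclei a peak 410993 bp downstream of the Tfec start (chr6:16487333-16487564) held 2.27 and 5.08 in WT and 9.77 and 14.0 in SgshKO, or 4 and 9 against 14 and 22 reads. It rose by 1.51 ± 0.38 (adjusted p = 0.00679, limma) and was among the sparsest peaks of its table, at the 3.06th percentile of the WT means. The assignment rests on distance alone at that range.

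In microglia 4 of the 53 family peaks rose in SgshKO and 0 fell, against 5.05% of all 91770 peaks that rose and 2.33% that fell (limma, adjusted p under 0.05). The called share was 7.55%, near the background. All 4 were distal, 3 at Tfeb and 1 at Mitf. They made 8.89% of the 45 distal family peaks, where 3.80% of all 67964 distal peaks rose. At start sites 0 of 8 family peaks rose, where 8.59% of all start-site peaks did. Without WT replicate 1 or without WT replicate 2 none of the 4 was called, although 1159 and 557 peaks of the whole table still were, with 8464 and 6876 at an unadjusted p under 0.05. Counting separation alone, both SgshKO libraries lay above both WT libraries at 22 of 53 family peaks and below them at 3, where the same held for 22.97% and 28.1% of all peaks. The median log2 change was 0.25 for the family and -0.08 for all peaks. In-peak scaling shifted the median of all microglial peaks by -0.20, to -0.28, and left the family at 0.06. The family median was 0.31 under median-of-ratios scaling, 0.23 under quantile normalization, 0.26 under cyclic loess and 0.28 in edgeR. The medians of all peaks in the same order were -0.03, -0.06, -0.03 and -0.03.

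The largest of the called microglial peaks lay inside Tfeb. An intron 1 peak (chr17:47754248-47754474), at the 98.0th percentile of WT means, held 309 and 258 tags in WT and 658 and 480 in SgshKO. It rose by 0.99 ± 0.26, a 2.01-fold level (adjusted p = 0.0123, limma), and was not called under quantile normalization (0.46, adjusted p = 0.0683) or cyclic loess (0.49, adjusted p = 0.059). A peak 1134 bp upstream of the third Tfeb start (chr17:47784498-47784722, also intron 1) held 152 and 155 in WT and 426 and 244 in SgshKO. It rose by 1.07 ± 0.28, 2.18-fold (adjusted p = 0.0147, limma), and without SgshKO replicate 1 the change was 0.67 (adjusted p = 0.0551). Both SgshKO libraries exceeded both WT libraries at each of these peaks, as at 19.6% of all distal microglial peaks, and replicate 1 was the higher of the pair.

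The other called microglial peaks were small. A Tfeb peak 1695 bp downstream of the second start (chr17:47739526-47739726) held 4 reads in each WT library and 32 and 9 in SgshKO, or 3.46 and 3.39 against 27.7 and 8.36 tags. It rose by 1.89 ± 0.54 (adjusted p = 0.0261, limma), and the change was 1.08 (adjusted p = 0.0756) without SgshKO replicate 1. An intergenic Mitf peak (chr6:98113749-98113970), 122076 bp downstream of the third Mitf start, held 11.2 and 6.78 tags in WT and 26.0 and 25.1 in SgshKO, or 13 and 8 against 30 and 27 reads. It rose by 1.44 ± 0.46 (adjusted p = 0.0481, limma) and was not called with a pseudocount of 0.5 (adjusted p = 0.0518).

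Of the 5 most accessible distal peaks of the family in microglia, the intron 1 peak at 47754248 passed the test and the other 4 did not. The tallest, another intron 1 peak of Tfeb (chr17:47768695-47768935) at the 99.3rd percentile of WT means held 449 and 368 tags in WT and 640 and 498 in SgshKO, a log2 change of 0.47 ± 0.25 (adjusted p = 0.265, limma). It passed under median-of-ratios scaling (0.53, adjusted p = 0.0399) and in edgeR (0.51, adjusted p = 0.0454), and turned to -0.10 under quantile normalization and -0.08 under cyclic loess. A peak just beyond the Tfeb gene (chr17:47793417-47793617) held 241 and 229 in WT and 300 and 209 in SgshKO, with overlapping groups. At Mitf, the highest distal peak (chr6:97866668-97866899, intron) held 247 and 228 in WT and 310 and 197 in SgshKO, where the SgshKO libraries fell on either side of the WT pair and the log2 change of 0.06 turned negative under in-peak scaling, quantile normalization and cyclic loess. A second intronic Mitf peak (chr6:97820732-97820934) held 233 and 209 in WT and 336 and 289 in SgshKO (log2 change 0.49, adjusted p = 0.271, limma). Summed over all its peaks, Tfeb came to 2580 and 2243 tags in WT and 4081 and 2832 in SgshKO microglia, and Mitf to 1133 and 1073 in WT and 1551 and 1116 in SgshKO. SgshKO replicate 1, the library with the highest share of tags in peaks, gave the highest sum for Mitf, Tfeb and Tfec.

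**Figure D2:**
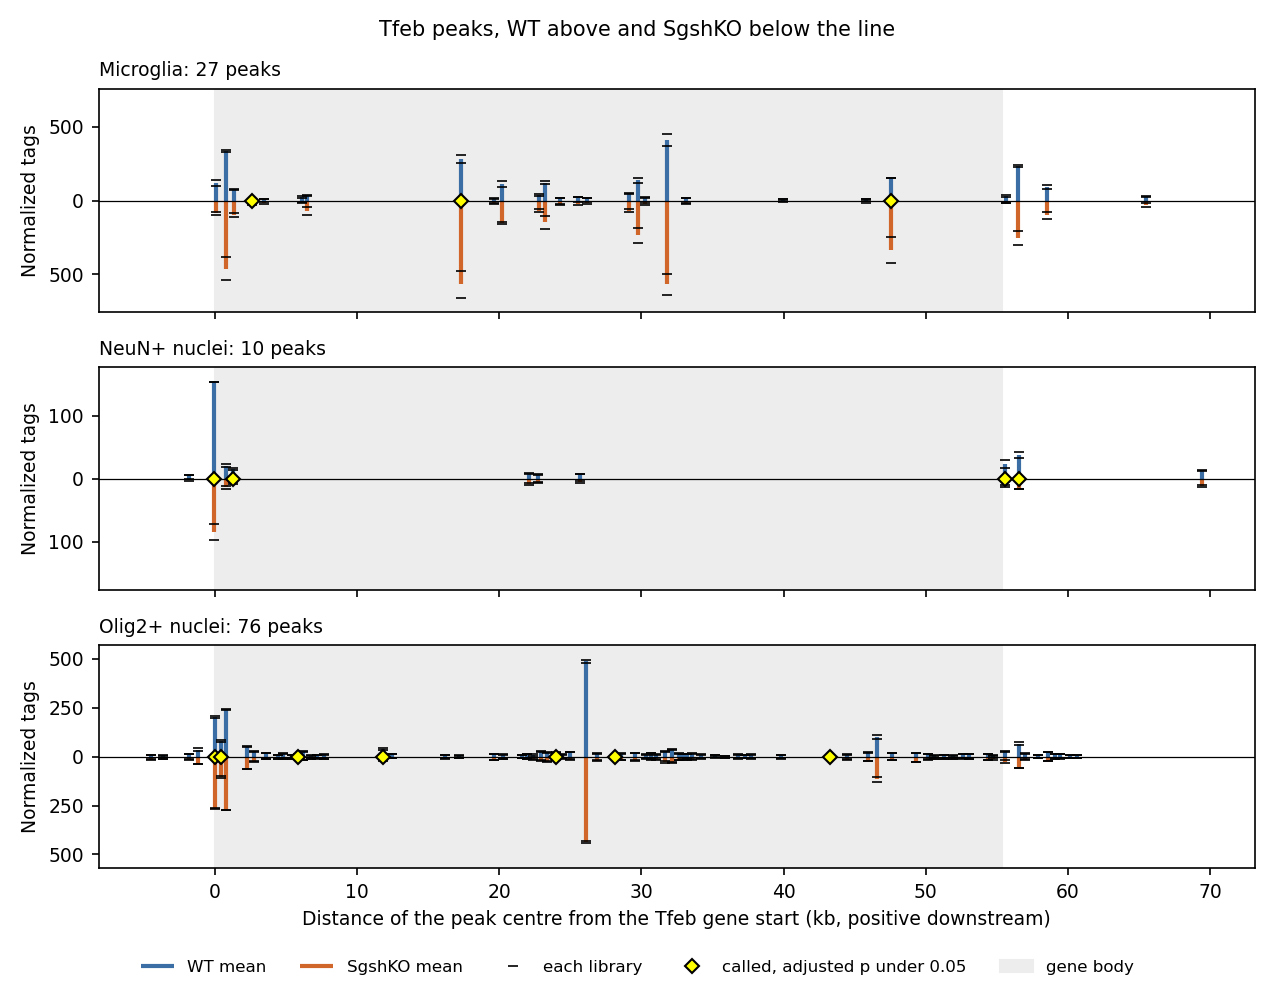
Normalized tags of every Tfeb peak against its distance from the Tfeb gene start (kb), with WT means drawn upward, SgshKO means downward, a tick for each library, the gene body shaded and called peaks marked by diamonds, on a separate tag axis for each population. The 27 microglial peaks and the 76 Olig2+ peaks have their tallest distal peak at different places, 449 and 368 WT tags at chr17:47768695-47768935 in microglia and 496 and 481 at chr17:47763027-47763231 in Olig2+ nuclei.

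In NeuN+ nuclei 3 of the 24 family peaks rose in SgshKO and 7 fell, where 10.2% of all 107627 peaks rose and 19.6% fell (limma). At start sites 4 of 5 family peaks fell, in a table in which 44.9% of all 23397 start-site peaks fell and the median start-site change was -0.53, so a fall at a start site was common there. The split of the family calls depended on the scaling, with 5 higher and 3 lower under in-peak scaling, 5 and 4 under median-of-ratios scaling, 3 and 2 under quantile normalization, 3 and 3 under cyclic loess and 5 and 5 in edgeR. These scalings raised the median of all peaks by 0.15 to 0.28. The median of the family was -0.27, beside -0.23 for all peaks, and -0.08 to 0.00 under the 5 scalings. Both SgshKO libraries lay above both WT libraries at 7 family peaks and below them at 10, as at 24.1% and 44.4% of all peaks. Without SgshKO replicate 1 or without SgshKO replicate 2 no peak of the whole NeuN+ table was called in limma, with 33265 and 32556 at an unadjusted p under 0.05.

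Among the distal NeuN+ peaks, those at the 3' end of Tfeb and inside Tfe3 fell. The peak beyond the Tfeb gene (chr17:47793484-47793693) held 33.4 and 42.4 tags in WT and 16.8 and 15.9 in SgshKO and fell by 1.16 ± 0.22 (0.43-fold, adjusted p = 0.000966, limma), with the same call under every scaling named above. Its neighbour at the end of the last exon (chr17:47792506-47792767) held 28.9 and 16.4 in WT and 12.6 and 10.2 in SgshKO and fell by 0.89 ± 0.29 (adjusted p = 0.0272, limma), and without WT replicate 1 the change was -0.50 and not called (adjusted p = 0.348). An intronic Tfe3 peak (chrX:7765793-7766004) held 20.4 and 17.5 in WT and 4.19 and 6.98 in SgshKO and fell by 1.63 ± 0.31 (0.29-fold, adjusted p = 0.00109, limma), again with the same call under every scaling named above. The microglial peak overlapping that place (chrX:7765941-7766213) held 76.1 and 51.7 in WT and 85.7 and 92.8 in SgshKO and did not pass (log2 change 0.50, adjusted p = 0.383, limma). DESeq2 called none of these distal NeuN+ falls.

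Among the 7 distal Mitf peaks of NeuN+ nuclei 2 rose and 0 fell, where 12.6% of all 84230 distal NeuN+ peaks rose and 12.6% fell (limma). An intronic peak (chr6:97963496-97963719) held 3.97 and 5.08 tags in WT and 13.3 and 11.4 in SgshKO, or 7 and 9 against 19 and 18 reads, and rose by 1.28 ± 0.33 (adjusted p = 0.00837, limma). An intergenic peak (chr6:98089223-98089591) held 13.6 and 11.9 in WT and 30.7 and 18.4 in SgshKO and rose by 0.86 ± 0.27 (adjusted p = 0.0248, limma), with a change of 0.50 (adjusted p = 0.216) without SgshKO replicate 1. DESeq2 called neither. Both were small beside the Mitf start. The highest distal Mitf peak (chr6:97952940-97953178) held 16.4 and 18.1 in WT and 20.9 and 22.2 in SgshKO and did not pass (adjusted p = 0.329, limma).

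In Olig2+ nuclei 4 of the 98 family peaks rose and 6 fell, where 8.17% of all 82577 peaks rose and 11.7% fell (limma), so the called shares of 4.08% and 6.12% were below the background. Under quantile normalization 6 rose and 4 fell, under cyclic loess 6 and 5, and under median-of-ratios scaling 5 and 5. Both SgshKO libraries lay above both WT libraries at 21 family peaks and below them at 32, as at 26.4% and 34.9% of all peaks. At start sites the median log2 change was 0.37 over the 7 family peaks and 0.05 over all 20120 start-site peaks. The family value rested mostly on Tfeb, whose 4 start-site peaks changed by 0.18 to 0.43. The 2 of Mitf changed by -0.10 and 0.41, and that of Tfe3 by -0.18.

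Tfeb stood out in Olig2+ nuclei by the number of its peaks. The gene had 76 peaks covering 23587 bp there by nearest start, and 34 of 16193 genes in the table, itself included, had as many or more. Of the 76, 63 lay in the Tfeb gene body, and some upstream of it were annotated to the neighbouring gene Pgc. In microglia Tfeb had 27 peaks covering 6572 bp, as many or more than which 347 of 17121 genes had, and 23 of the 27 lay in the gene body. With the populations put together, 76 of the 113 Tfeb peaks lay in intron 1 of the transcript from the second start. Most of the Olig2+ peaks were small, with a median WT level of 13.4 tags. The tallest (chr17:47763027-47763231), at the 99.6th percentile of its table, held 496 and 481 tags in WT and 430 and 441 in SgshKO. Both SgshKO libraries were below both WT libraries, as at 37.7% of all distal Olig2+ peaks. The log2 change of -0.17 ± 0.06 did not pass (adjusted p = 0.0601, limma), while it was -0.20 and called under quantile normalization (adjusted p = 0.0268) and -0.23 under cyclic loess (adjusted p = 0.00639). The sum over all Tfeb peaks was 2255 and 2194 in WT and 2222 and 2281 in SgshKO.

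Intron 1 of Tfeb held called Olig2+ peaks in both directions. A peak (chr17:47748659-47749119) held 36.3 and 46.0 tags in WT and 16.6 and 19.9 in SgshKO and fell by 1.13 ± 0.22 (0.44-fold, adjusted p = 0.000564, limma), a call kept in all 15 alternatives. The peaks at chr17:47742755-47742962, chr17:47760923-47761164 and chr17:47780222-47780442 also fell, by 0.99 ± 0.34, 0.86 ± 0.29 and 1.18 ± 0.37 (adjusted p = 0.0404, 0.0337 and 0.0258, limma). Their WT libraries held 10.2 to 24.0 tags, and each call was lost under quantile normalization. Another peak (chr17:47764992-47765376) held 7.26 and 4.60 in WT and 13.5 and 13.3 in SgshKO, or 14 and 9 against 22 and 20 reads. It rose by 1.08 ± 0.33 (adjusted p = 0.0211, limma) and was not called in DESeq2.

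Distal Mitf peaks in Olig2+ nuclei lay partly downstream of the gene. There, an intergenic peak (chr6:98046805-98047057) held 39.9 and 38.9 tags in WT and 67.6 and 70.5 in SgshKO and rose by 0.79 ± 0.16 (1.75-fold, adjusted p = 0.000987, limma), a call kept in all 15 alternatives. The highest distal Mitf peak (chr6:98049256-98049470), in the same intergenic stretch, held 215 and 240 in WT and 255 and 241 in SgshKO and did not pass (log2 change 0.12, adjusted p = 0.321, limma). An intronic peak (chr6:97856564-97856794) held 14.0 and 11.3 in WT and 3.69 and 4.65 in SgshKO, or 27 and 22 against 6 and 7 reads, and fell by 1.40 ± 0.35 (adjusted p = 0.00511, limma). An intergenic one (chr6:98083782-98083986) held 12.5 and 12.8 in WT and 3.69 and 5.98 in SgshKO, or 24 and 25 against 6 and 9 reads, and fell by 1.25 ± 0.35 (adjusted p = 0.011, limma). DESeq2 called neither fall.

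**Figure D3:**
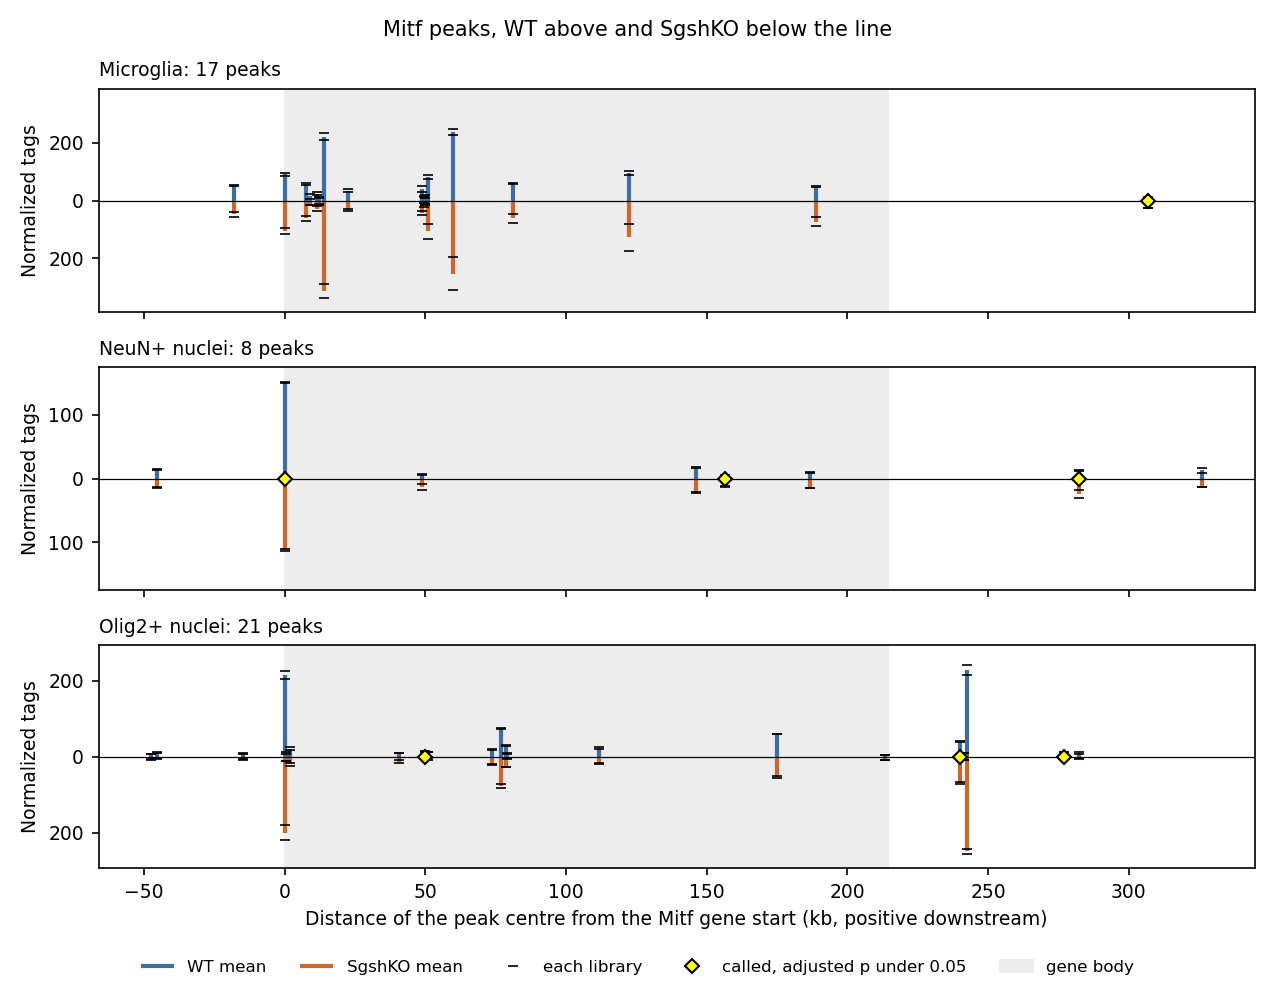
Normalized tags of every Mitf peak against its distance from the Mitf gene start (kb), with WT means upward, SgshKO means downward, a tick for each library, the gene body shaded and called peaks marked by diamonds, on a separate tag axis for each population. Called peaks are few and mostly small. The Olig2+ peak that rose (39.9 and 38.9 against 67.6 and 70.5 tags) lies beyond the gene end, and the NeuN+ start-site call depends on the scaling, the log2 change turning to 0.14 under quantile normalization.

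**Figure D4:**
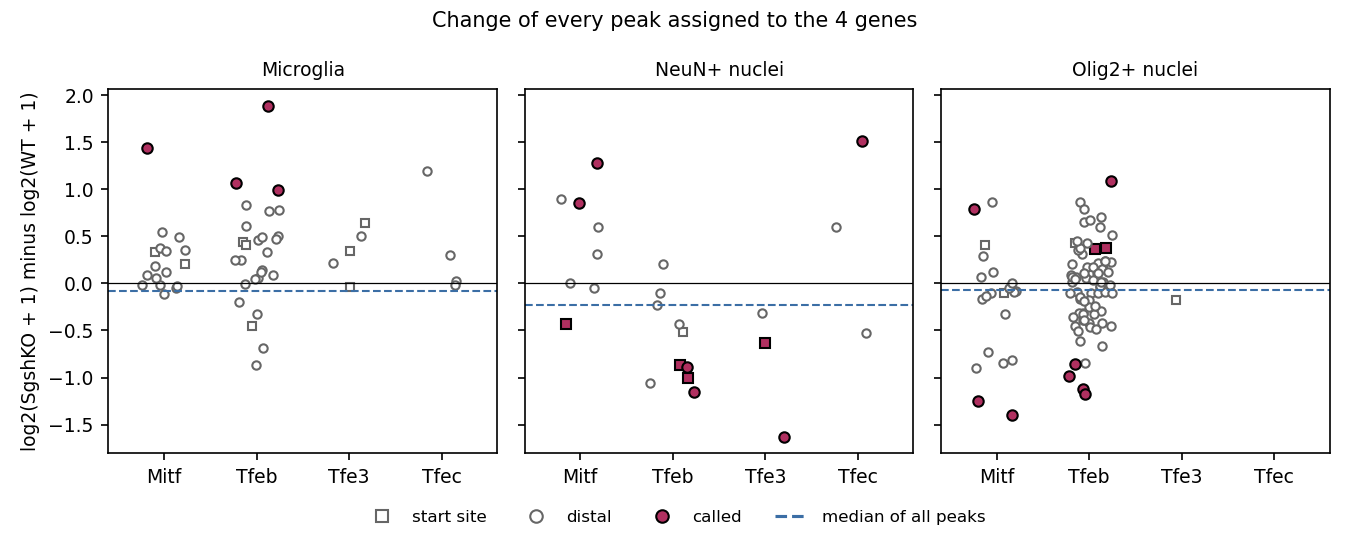
Log2 change (SgshKO minus WT, log2 of normalized tags + 1) of each of the 175 peaks by gene and population, with squares for start-site peaks, circles for distal peaks, filled symbols for called peaks and a dashed line at the median of all peaks of the table. In microglia all 4 called peaks are above 0, in NeuN+ nuclei 3 are above and 7 below, and in Olig2+ nuclei 4 are above and 6 below. The NeuN+ split becomes 5 and 3 under in-peak scaling.

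How far the peaks of the 3 populations coincided differed between the genes. Of all family peaks, 22 of 53 in microglia (41.5%), 9 of 24 in NeuN+ nuclei (37.5%) and 65 of 98 in Olig2+ nuclei (66.3%) overlapped no peak of another table by even 1 bp, beside 60.2%, 59.9% and 51.2% of all peaks. Of the Mitf peaks, 13 of 17 in microglia, 4 of 8 in NeuN+ nuclei and 16 of 21 in Olig2+ nuclei stood alone in this way. For Tfeb this held for 2 of 27, 1 of 10 and 49 of 76, and for Tfe3 for 3 of 5, 1 of 3 and 0 of 1. The Tfeb peaks of microglia that overlapped an Olig2+ peak were 23 of 27, which met 25 of the 76 Olig2+ peaks. All 4 and all 3 Tfec peaks were in no other table.

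Levels could be compared where peaks of different tables coincided, taking pairs that overlapped reciprocally by 50%. Tables were scaled library by library, and the sort, live cells against fixed nuclei and the share of tags in peaks cannot be told apart in these comparisons. WT microglia and WT NeuN+ nuclei shared 9 family peaks, of which 6 were higher in microglia and 1 lower, where 47.3% and 14.6% of all 24963 shared peaks were (limma). Microglia and Olig2+ nuclei shared 18, with 8 higher in microglia and 4 lower, against 43.7% and 20.8% of 22709. NeuN+ and Olig2+ nuclei shared 10, with 0 higher and 7 lower in NeuN+ nuclei, against 22.5% and 33.7% of 29573.

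The second Tfeb start showed a large difference between WT populations. Its mean level was 335 tags in microglia, 241 in Olig2+ nuclei and 20.4 in NeuN+ nuclei. NeuN+ nuclei were lower than microglia by 3.98 ± 0.22 on the log2 scale (adjusted p = 9.06e-12, limma) and lower than Olig2+ nuclei by 3.51 ± 0.16 (adjusted p = 1.89e-19, limma). Microglia and Olig2+ nuclei differed by 0.48 (adjusted p = 0.0139, limma), but the sign turned under in-peak scaling (-0.23). At the first Tfeb start the order was Olig2+ nuclei (203), NeuN+ nuclei (154) and microglia (120). Microglia were lower than Olig2+ nuclei by 0.78 on the log2 scale (adjusted p = 0.00132, limma), while microglia and NeuN+ nuclei did not differ past the threshold (-0.38, adjusted p = 0.118, limma). The difference of -0.40 between NeuN+ and Olig2+ nuclei (adjusted p = 0.00246, limma) was 0.01 under quantile normalization.

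The Mitf start had the same order, 214 tags in Olig2+ nuclei, 152 in NeuN+ nuclei and 91.6 in microglia. Microglia were lower than NeuN+ nuclei by 0.72 and lower than Olig2+ nuclei by 1.22 on the log2 scale (adjusted p = 0.00139 and 8.04e-06, limma). NeuN+ nuclei were lower than Olig2+ nuclei by 0.49 (adjusted p = 0.000154, limma), a difference of -0.22 under in-peak scaling (adjusted p = 0.0612). The Tfe3 start was highest in microglia, with 203 tags against 145 in Olig2+ nuclei and 107 in NeuN+ nuclei. Both differences from microglia (0.48 and 0.91, adjusted p = 0.00996 and 6.23e-05, limma) turned under in-peak scaling, to -0.22 and -0.06.

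Inside Tfeb the tallest distal peak of microglia was a minor peak of Olig2+ nuclei and the reverse. The tallest Olig2+ peak had a WT mean of 489 tags, and its counterpart in microglia (chr17:47763053-47763350) had 16.2, a log2 difference of -4.84 ± 0.30 (adjusted p = 2.89e-10, limma). The tallest microglial peak had 409, and its Olig2+ counterpart 27.3 (log2 difference 3.86 ± 0.21, adjusted p = 8.79e-11, limma). The microglial peak upstream of the third Tfeb start, which rose in SgshKO, had 154 in WT microglia and 17.3 in WT Olig2+ nuclei (3.08 ± 0.25, adjusted p = 8.13e-09, limma). The peak beyond the gene end had 235 in microglia, 66.8 in Olig2+ nuclei and 37.9 in NeuN+ nuclei, and was higher in microglia by 1.81 and 2.61 on the log2 scale (adjusted p = 3.14e-07 and 1.87e-09, limma).

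Whether the SgshKO change differed at a shared peak was tested as the difference between the log2 changes of each pair of populations. At the first Tfeb start the NeuN+ change of -0.87 and the Olig2+ change of 0.38 differed by -1.24 ± 0.16 (adjusted p = 1.46e-07, limma), a call that held in all 16 alternatives. Of the 10 family peaks shared by NeuN+ and Olig2+ nuclei, 1 had a higher change in NeuN+ nuclei and 4 a lower one, where 3.29% and 31.7% of all shared peaks did. Between microglia and NeuN+ nuclei 4 of 9 had a higher change in microglia and 0 a lower one, against 27.7% and 1.6% of all shared peaks. Between microglia and Olig2+ nuclei 2 of 18 were higher in microglia and 1 lower, against 12.3% and 2.9%. These comparisons share libraries with each other and with the tests within each population.

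The other differences held under fewer of the alternatives. At the Tfe3 start the change in microglia exceeded that in NeuN+ nuclei by 1.27 ± 0.23 (adjusted p = 0.000236, limma) and that in Olig2+ nuclei by 0.82 ± 0.22 (adjusted p = 0.0152, limma), which under quantile normalization were 0.13 and 0.27 and not called. None of the 3 differing changes between microglia and Olig2+ nuclei, at the Tfe3 start, the first Tfeb start and the peak upstream of the third Tfeb start, was called when any 1 of the 4 Olig2+ libraries was left out. At the first Tfeb start the change in microglia was lower than that in Olig2+ nuclei by 0.83 ± 0.26 on the log2 scale (adjusted p = 0.0412, limma). At the peak upstream of the third Tfeb start the change of 1.07 in microglia and of -0.03 in Olig2+ nuclei differed by 1.09 ± 0.35 (adjusted p = 0.043, limma), and leaving out SgshKO replicate 1 of microglia gave 0.69 (adjusted p = 0.127). An intergenic Mitf peak near 98089223 rose in NeuN+ nuclei and held 7.26 and 11.3 tags in WT and 3.07 and 6.65 in SgshKO Olig2+ nuclei, a difference between the changes of 1.71 ± 0.48 (adjusted p = 0.00558, limma).

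Genes that control where the MiT/TFE proteins reside were read from a list of 28, which includes the Rag GTPases, the LAMTOR complex, folliculin and its partners, mTORC1, calcineurin and 14-3-3 proteins. Peaks of this and the following lists were not read under the alternative analyses. In microglia 2 of the 47 start-site peaks of this list rose and 0 fell, where 8.59% and 1.20% of all start-site peaks did. The list had a median log2 change of 0.24, against 0.03 for all start-site peaks. Rheb, the GTPase that activates mTORC1, held 143 and 87.3 tags in WT and 236 and 276 in SgshKO and rose by 1.18 ± 0.29 (adjusted p = 0.0082, limma). Lamtor1, which anchors the LAMTOR complex to the lysosome, held 197 and 141 in WT and 285 and 461 in SgshKO and rose by 1.12 ± 0.28 (adjusted p = 0.00984, limma). In NeuN+ nuclei 1 of 49 rose and 22 fell, where 44.9% of all start-site peaks fell, among them the calcineurin genes Ppp3ca and Ppp3r1 (-1.08 and -0.96). In Olig2+ nuclei 6 of 44 rose and 3 fell, where 12.7% and 7.56% of all start-site peaks did. Lamtor1 rose there from 191 and 170 to 253 and 271 (0.53 ± 0.09, adjusted p = 0.000107, limma), and so did Mcoln1, a lysosomal calcium channel, from 138 and 137 to 191 and 201 (0.51 ± 0.10, adjusted p = 0.000514, limma). Over the peaks of this list at any distance, 9 rose and 2 fell of 156 in microglia, 15 and 42 of 180 in NeuN+ nuclei, and 6 and 17 of 101 in Olig2+ nuclei, with medians of 0.07, -0.26 and -0.16.

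Of 12 genes known or proposed to regulate Mitf transcription, 10 had start-site peaks in microglia, 24 in all. Where 8.59% of all start-site peaks rose and 1.20% fell, 2 of these 24 rose and 0 fell. Both peaks that rose belonged to Bhlhe40, a basic helix-loop-helix repressor. Its peak nearest to the start held 87.3 and 114 tags in WT and 302 and 388 in SgshKO and rose by 1.77 ± 0.28 (adjusted p = 5.68e-05, limma). The same start rose in Olig2+ nuclei from 160 and 162 to 247 and 241 (0.60 ± 0.09, adjusted p = 2.56e-05, limma). In NeuN+ nuclei it held 166 and 159 in WT and 103 and 113 in SgshKO and fell by 0.58 ± 0.11 (adjusted p = 0.000779, limma). That was near the median change of all NeuN+ start-site peaks, -0.53. At start sites, 0 of 13 peaks of this list rose and 10 fell in NeuN+ nuclei, where 1.74% and 44.9% of all start-site peaks did. In Olig2+ nuclei 4 of 18 rose and 0 fell, where 12.7% and 7.56% did. At any distance 7 rose and 3 fell of 143 in microglia, 12 and 20 of 59 in NeuN+ nuclei, and 8 and 3 of 126 in Olig2+ nuclei, with medians of -0.24, -0.12 and -0.06. The shares of all peaks were 5.05% and 2.33%, 10.2% and 19.6%, and 8.17% and 11.7% in the same order.

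Other leucine zipper factors that bind E-boxes showed 3 of 44 start-site peaks higher in microglia and 0 lower, where 8.59% and 1.20% of all were. Srebf1 and Srebf2, the regulators of fatty acid and cholesterol synthesis, rose there, Srebf1 from 165 and 140 to 363 and 362 (1.25 ± 0.27, adjusted p = 0.00233, limma) and Srebf2 from 197 and 175 to 435 and 428 (1.21 ± 0.26, adjusted p = 0.00238, limma). Mnt, a MAX-binding repressor, was the third. In NeuN+ nuclei 0 of 36 rose and 20 fell, where 1.74% and 44.9% of all start-site peaks did. In Olig2+ nuclei 6 of 43 rose and 2 fell, where 12.7% and 7.56% did. With distal peaks included, the counts were 9 higher and 1 lower of 149 for microglia, 9 and 37 of 147 for NeuN+ nuclei, and 21 and 8 of 153 for Olig2+ nuclei, with medians of -0.11, -0.27 and 0.11. For all peaks the shares were 5.05% and 2.33%, 10.2% and 19.6%, and 8.17% and 11.7%.

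Among 34 target genes of the family, 29 had start-site peaks in microglia, and 5 of 55 peaks rose and 0 fell, with a median of 0.30. The autophagy genes Wipi1 and Map1lc3b rose, Wipi1 from 226 and 169 to 466 and 589 (1.42 ± 0.26, adjusted p = 0.000465, limma) and Map1lc3b from 123 and 104 to 359 and 241 (1.37 ± 0.28, adjusted p = 0.00167, limma). Neu1, the lysosomal sialidase, rose from 212 and 199 to 448 and 411 (1.06 ± 0.26, adjusted p = 0.00755, limma). In NeuN+ nuclei 1 of 57 rose and 20 fell, including Wipi1 (588 and 516 against 346 and 361, a change of -0.64). The median change of all NeuN+ start-site peaks was -0.53. In Olig2+ nuclei 5 of 40 rose and 5 fell. Lamp1, a lysosomal membrane protein, rose from 92.8 and 92.6 to 172 and 155 (0.81 ± 0.11, adjusted p = 7.83e-06, limma), and Sqstm1, the autophagy receptor p62, fell from 207 and 224 to 140 and 160 (-0.52 ± 0.10, adjusted p = 0.000395, limma). Over the peaks of the target genes at any distance, 25 rose and 20 fell of 336 in microglia, 12 and 29 of 178 in NeuN+ nuclei, and 7 and 28 of 173 in Olig2+ nuclei, with medians of 0.01, -0.25 and -0.23. The background at start sites was 8.59% higher and 1.20% lower for microglia, 1.74% and 44.9% for NeuN+ nuclei, and 12.7% and 7.56% for Olig2+ nuclei. Over all peaks it was 5.05% and 2.33%, 10.2% and 19.6%, and 8.17% and 11.7% in the same order.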

How the data were processed

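ATAC-seq was measured in 12 single-end libraries, 2 for each of 6 groups. The authors deposited a table of merged peaks for each population, with the nearest gene and its start. Reads were aligned to mm10 with tools that include Bowtie2 and HOMER, per the submitters' processing notes. Versions, read shifting, duplicate removal and the sequencer of each library are not stated in the labels, headers or notes used. Gel selection kept short fragments, per the labels' protocols.

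The deposited signal is tags per peak scaled to a library total of 10000000, per the file headers, and 100.000% of values were within 0.011 of a whole read. A deposited peak score (540 to 1000) served only as a filter. Limma 3.58.1 (R 4.3.3; trend, two-sided) was fitted to log2(tags + 1) over every peak of a table, with Benjamini-Hochberg adjustment and calls under 0.05. Shared peaks of each pair of tables were fitted over 8 libraries. A median-of-ratios scaling, a scaling to the tags in peaks, quantile normalization, cyclic loess, DESeq2 1.42.0 and edgeR 4.0.16 run on the recovered reads, pseudocounts of 0.5 and 5, filters, a replicate block and each library left out were alternatives. The fit was tested on simulated data in which only peaks above a minimum read count were changed. No shift of all peaks between genotypes was simulated, so the test does not cover the sparsest peaks or such a shift.

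Peaks named are those nearest to each start, all called peaks, the highest distal peak of each gene and table, and shared peaks whose changes differed, and for the gene lists at most 4 per list with the smallest p. A few further peaks, such as the intronic Mitf peak at 97820732 and counterparts in other tables, were chosen after their values were seen. The 4 genes and the lists of markers and pathway genes were chosen with earlier results of these data known. Depth limits small peaks, since a level of 10 tags is about 10 to 20 reads.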

Additional observations from a re-analysis of the deposited data

Results flagged for a closer look

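These values are listed because the log2 change from WT to SgshKO at a shared peak differed between 2 populations in limma (adjusted p under 0.05). Over all shared peaks the median difference was -0.41 for NeuN+ minus Olig2+ nuclei. For microglia it was 0.48 against NeuN+ nuclei and 0.12 against Olig2+ nuclei. Of all shared peaks, 31.7% had a lower change in NeuN+ than in Olig2+ nuclei. The change was higher in microglia at 27.7% against NeuN+ nuclei and at 12.3% against Olig2+ nuclei. Between NeuN+ and Olig2+ nuclei (the NeuN+ change minus the Olig2+ change), the difference was -1.24 at the first Tfeb start (adjusted p = 1.46e-07), -0.70 at the second Tfeb start (0.0175), -0.97 at the peak beyond the Tfeb gene end (0.00595), -0.45 at the Tfe3 start (0.0363) and 1.71 at the intergenic Mitf peak near 98089223 (0.00558). Between microglia and NeuN+ nuclei it was 1.27 at the Tfe3 start (0.000236), 0.96 at the second Tfeb start (0.0256), 1.41 at the peak 457 bp beyond that start (0.0124) and 1.25 at the peak beyond the Tfeb gene end (0.00305). Between microglia and Olig2+ nuclei it was 0.82 at the Tfe3 start (0.0152), -0.83 at the first Tfeb start (0.0412) and 1.09 at the peak upstream of the third Tfeb start (0.043). The -0.45 at the Tfe3 start lay near the median of its pair, -0.41, and changed sign under quantile normalization. At the first Tfeb start the SgshKO libraries lay below the WT libraries in NeuN+ nuclei and above them in Olig2+ nuclei in every pairing of 2 libraries. Of all start-site peaks, 70.9% lay below in this way in NeuN+ nuclei and 34.7% above in Olig2+ nuclei. In NeuN+ nuclei the share of tags in peaks fell from 26.7% and 25.9% in WT to 21.5% and 21.2% in SgshKO, while in Olig2+ nuclei it was 30.9% to 31.8% in both groups, and its part in these differences was not tested beyond the scalings given.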

How the results depend on the processing

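Of the single-peak values recomputed under each alternative, 969 kept their direction and side of the threshold, 173 lost a call, 19 gained one, 1 moved and 35 changed sign. The cause was not tested. The filters and the stricter overlap also left fewer family peaks in the test, which lowers the counts below. Without the lowest 25% of peaks, 43 of 53 in microglia and 67 of 98 in Olig2+ nuclei were tested. Among peaks of score 1000, 9 of 24 in NeuN+ nuclei were. At a reciprocal overlap of 75%, 6 of the 18 pairs between microglia and Olig2+ nuclei were. The 4 microglial calls became 2 without the lowest 25% of peaks, 8 under median-of-ratios scaling, 10 in edgeR, 7 with a replicate block and 0 to 11 with a library left out. The 10 NeuN+ calls became 6 among peaks of score 1000, 5 under quantile normalization, 6 under cyclic loess, 1 in DESeq2 and 0 to 7 with a library left out. The 10 Olig2+ calls became 6 without the lowest 25%, 3 in DESeq2 and 3 to 12 with a library left out. Of the differing changes, the 4 between microglia and NeuN+ nuclei became 1 under in-peak scaling, 0 under quantile normalization, 1 in edgeR and 2 to 5 with a library left out. The 3 between microglia and Olig2+ nuclei became 1 under in-peak scaling, quantile normalization or a reciprocal overlap of 75%, and 0 to 5 with a library left out. The 5 between NeuN+ and Olig2+ nuclei became 2 under in-peak scaling, quantile normalization or edgeR, and 1 to 6 with a library left out. Of the WT levels, the 12 calls among 18 pairs between microglia and Olig2+ nuclei became 4 among the 6 pairs left at 75% overlap. The 7 between NeuN+ and Olig2+ nuclei became 3 under in-peak scaling and 4 under quantile normalization.

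Signs turned as follows. In microglia the tallest Tfeb peak went to -0.0968 (quantile) and -0.0760 (cyclic loess), the second Tfeb start to -0.0879 and -0.0536, the highest distal Mitf peak to -0.1492 (in-peak), -0.3348 (quantile), -0.3099 (cyclic loess) and to between -0.2688 and 0.3837 with a library left out (-0.0009 without WT replicate 2), the second Tfe3 start to 0.0176 (median-of-ratios), 0.0072 (edgeR) and 0.0273 (DESeq2), and the first Mitf start to -0.0036 (in-peak). With a library left out the second Mitf start gave -0.2091 to 0.8724, the highest Tfec peak -0.2253 to 0.8277 (-0.0170 without SgshKO replicate 1), and the Olig2+ Mitf start -0.2449 to 0.0377. The NeuN+ Mitf start went to 0.1412 (quantile) and 0.1278 (cyclic loess). Under quantile normalization the difference of changes at the second Tfeb start between microglia and NeuN+ nuclei was -0.1074 and that at the Tfe3 start between NeuN+ and Olig2+ nuclei 0.1289. WT differences between microglia and NeuN+ nuclei turned at the Tfe3 start (-0.0645, in-peak) and at the Tfeb peak 47792556 (-0.5688 in-peak, -0.4850 quantile, -0.2877 edgeR, -0.0115 to 0.7707 with a library left out). Those between microglia and Olig2+ nuclei turned at the second Tfeb start (-0.2342) and the Tfe3 start (-0.2231) in-peak, and at the Mitf peak 97856562 (0.0049 at a pseudocount of 5, -0.4918 to 0.4711 with a library left out, 0.1358 without Olig2+ WT replicate 1). Those between NeuN+ and Olig2+ nuclei turned at the first Tfeb start (0.0105, quantile), the Tfeb peak 47792506 (0.1323 with the replicate block, -0.6895 to 0.0928 with a library left out) and the Mitf peak 98089223 (-0.3087, tags per kb).

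Same-numbered libraries did not deviate together (correlations 0.042, 0.0036 and 0.0007), so the replicate block is only an alternative. It gave 7, 11 and 11 calls in microglia, NeuN+ and Olig2+ nuclei, with all 4, 10 and 10 main calls kept. With 2 libraries per group and levels of a few reads, changes at small peaks can go undetected.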
